A study of Mus musculus with 10 samples.

Results

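Cytochrome P450 enzymes of families 1 to 4 were taken from the gene table by symbol, as every entry whose name opens with Cyp, a family digit from 1 to 4, a subfamily letter and a gene number. The rule found 64 of the 16697 gene entries, spread over 18 subfamilies, and 9 of the 64 carry the pseudogene suffix -ps. Of the 64 members, 54 passed the filter of at least 1 FPKM in at least 3 libraries and were tested. FPKM are read numbers divided by gene length and by the effective size that the authors gave each library. The table covers 10 libraries of mouse liver from 3 groups. Normal liver (NL, n = 4) came from wild-type mice. The c-MYC tumors (n = 3) were liver tumors raised by hydrodynamic tail vein injection of a c-MYC plasmid with the empty vector pT3, a large-volume injection after which hepatocytes take up DNA. The c-MYC/FOXO1AAA tumors (n = 3) received c-MYC together with FOXO1AAA, a form of the transcription factor FOXO1 that AKT cannot inactivate. Both tumor groups share the c-MYC plasmid and the transposase that inserts it, and the labels name no plasmid for NL. As models, the groups are limited in that the tumors arise from the hepatocytes that took up plasmid and the libraries are of bulk tissue. The labels give the strain as C57BL/6, whereas the extraction notes and the study's methods name FVB/N normal livers, so the strain is not settled and did not enter the tests. The study's methods count these libraries as mice and livers, and no label ties a single library to an animal. The p-values measure the spread between these samples.

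P450 enzymes are heme proteins of the endoplasmic reticulum that insert an oxygen atom into their substrates with electrons passed on by P450 oxidoreductase (Por) and cytochrome b5. Families 1 to 3 oxidize mainly drugs, toxins, steroids and polyunsaturated fatty acids, and family 4 mainly hydroxylates fatty acids and eicosanoids at their tail end. The liver is their main site, many of the genes stand in tandem clusters of near-identical copies, and several are most active around the central vein, differ between male and female mice, or respond to receptors such as AHR, CAR, PXR and PPARα.

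The libraries held 13123717 to 20547746 reads in listed genes. The authors' scaling factors were 0.649 to 0.684 in NL, 1.26 to 1.29 in c-MYC and 1.45 to 1.502 in c-MYC/FOXO1AAA, so the groups differed in scaling as well as in condition. Foxo1, the gene that FOXO1AAA adds to, stood at 6.67 to 7.86 FPKM in NL and at 5.16 to 6.45 in c-MYC. It was at 70.1 to 95.6 FPKM in c-MYC/FOXO1AAA, in keeping with the labels, although reads of the plasmid and of the mouse gene cannot be told apart. Against c-MYC the log2 change was 3.88 (adjusted p = 3.40e-08). All adjusted p-values are from limma's treat test for a change above 1.5-fold with Benjamini-Hochberg adjustment over the 14017 genes tested, and a gene is said to have risen or fallen only at an adjusted p under 0.05.

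The upstream sequences of 6 members are given because these genes mark the patterns described below: 3 abundant liver P450 genes, 1 gene that did not fall in c-MYC and the 2 genes that were higher than NL in c-MYC/FOXO1AAA. They are RefSeq sequences of GRCm38.p6 from the 250 bases before the annotated start, cut where the window enters the gene, written 5′ to 3′ on the strand of the gene. Capitals mark 2 motifs searched on both strands in windows of 300 bases: the FOXO site GTAAACA and the Ah receptor core GCGTG, each of which may also appear as its reverse complement. The E-box CACGTG was searched as well and is in none of the 6, and Cyp2e1 holds none of the motifs.
Cyp2e1, chr7:140763569-140763738, plus strand: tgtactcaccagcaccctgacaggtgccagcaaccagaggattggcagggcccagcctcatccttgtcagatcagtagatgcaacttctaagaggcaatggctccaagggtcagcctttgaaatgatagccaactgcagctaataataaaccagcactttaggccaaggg
Cyp2j5, chr4:96664155-96664369, minus strand: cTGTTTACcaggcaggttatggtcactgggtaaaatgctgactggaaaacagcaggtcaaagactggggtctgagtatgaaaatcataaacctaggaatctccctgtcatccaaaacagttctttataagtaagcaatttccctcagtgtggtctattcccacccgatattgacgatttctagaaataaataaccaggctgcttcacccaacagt
Cyp3a11, chr5:145879965-145880104, minus strand: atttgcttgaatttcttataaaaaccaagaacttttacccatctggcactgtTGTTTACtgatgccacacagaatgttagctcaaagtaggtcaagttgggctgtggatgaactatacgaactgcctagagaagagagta
Cyp2c68, chr19:39741102-39741351, minus strand: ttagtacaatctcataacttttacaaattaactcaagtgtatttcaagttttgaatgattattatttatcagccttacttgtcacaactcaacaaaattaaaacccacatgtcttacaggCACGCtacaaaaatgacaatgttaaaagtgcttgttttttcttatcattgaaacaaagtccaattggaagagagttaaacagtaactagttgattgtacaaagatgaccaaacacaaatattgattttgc
Cyp4f16, chr17:32536307-32536556, plus strand: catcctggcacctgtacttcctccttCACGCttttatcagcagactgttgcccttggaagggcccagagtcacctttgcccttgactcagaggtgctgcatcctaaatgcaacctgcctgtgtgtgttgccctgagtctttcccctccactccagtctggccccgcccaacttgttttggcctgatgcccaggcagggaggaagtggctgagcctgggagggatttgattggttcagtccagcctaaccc
Cyp1b1, chr17:79715062-79715311, minus strand: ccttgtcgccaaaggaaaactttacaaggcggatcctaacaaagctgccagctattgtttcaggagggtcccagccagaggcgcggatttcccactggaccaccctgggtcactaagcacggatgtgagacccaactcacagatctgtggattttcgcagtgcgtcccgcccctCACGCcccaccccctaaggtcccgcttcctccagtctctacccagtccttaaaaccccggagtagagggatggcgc
Of the 43 members with a RefSeq promoter window, 4 (9.30%) held the FOXO site, namely Cyp2c38, Cyp2c39, Cyp2j5 and Cyp3a11, against 4.05% of all 27025 genes with a window. A gene was counted if any of its windows held the motif. The Ah receptor core stood in 9 members (20.9%, against 35.2% of all) and the E-box in 2 (4.65%, against 8.09%). In Cyp2j5 the FOXO site lies 249 bases before the start and in Cyp3a11 198 bases before it. Both genes are among the 6 shown, so the sequences shown do not stand for the share of the site over all members. These matches describe letters in a window and were not tested for binding.

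In NL the levels of the members ranged from 0.106 FPKM for Cyp1b1 to 7752 for Cyp2e1, and 23 of the 64 had a mean of at least 100 FPKM. Together they took 2.84% ± 0.0247 (SD, n = 4) of all reads, and none of the 64 lacked reads in any NL library. Levels were compared between genes over the longest coding transcript of GENCODE M21, because the length used by the authors is under 60% of it for 4 members. On that scale the members summed to 22363 FPKM ± 762 (SD, n = 4). Cyp2e1, which oxidizes ethanol and small toxins, led with a mean of 7752 FPKM and made up 30.3% to 37.1% of the sum. Cyp2c29 followed at 2367 FPKM, then Cyp2d9 at 1530, Cyp1a2 at 1217, Cyp2d10 at 1109 and Cyp3a11 at 817. By subfamily the sums fell from Cyp2e (7752 FPKM) through Cyp2c (5088 from 15 genes) and Cyp2d (3775 from 12 genes) to Cyp1a, Cyp3a and Cyp2a (1218, 1210 and 1209). The last 3 of these lay within their spread of each other. The subfamilies Cyp2f, Cyp4f, Cyp4a and Cyp2j held 731, 477, 351 and 347 FPKM, and the Cyp4a and Cyp2j sums did not differ beyond their spread. Cyp2b stood at only 20.4 FPKM ± 14.4, with single libraries from 5.90 to 34.5. Its main gene Cyp2b10, the classical target of the receptor CAR, was at 3.92, 30.6, 28.4 and 7.85 FPKM in NL 1 to 4, so NL itself varied here.

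**Figure D1:**
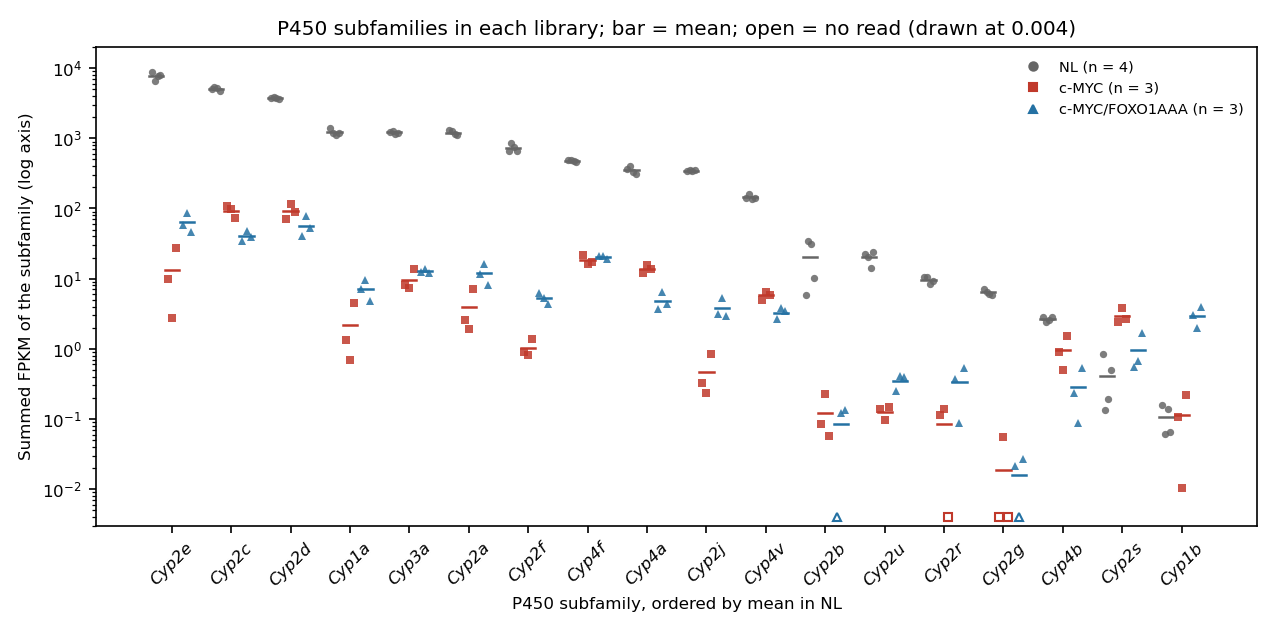
Summed FPKM of each P450 subfamily in each library, over the longest coding transcript, on a log axis and ordered by the NL mean; points are libraries, bars are group means and open symbols mark libraries with no read. The tumor libraries lie far below NL in nearly every subfamily, whereas Cyp2s and Cyp1b, at the right, have tumor libraries above NL.

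The first comparison asked how c-MYC tumors differ from normal liver. The members' share of reads was 0.0631% ± 0.00308 (SD, n = 3) in c-MYC, and their summed level was 258 FPKM ± 14.0. No member reached 100 FPKM in a tumor library, against 22 to 24 members per NL library. Of the 54 tested members, 47 fell, where 23.6% of all tested genes fell, and 1 rose, where 24.5% of all tested genes rose. The median log2 change of the members was -5.82, and that of all tested genes was 0.08. In 48 members every c-MYC library lay below every NL library, and in 3 every one lay above; the background for these counts is 34.9% below and 39% above. Because these are bulk samples, fewer cells of a type and less RNA per cell cannot be told apart.

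The deepest decreases included the most abundant genes of NL. Cyp2e1 stood at 8720, 6625, 7645 and 8020 FPKM in NL and at 9.75, 2.75 and 27.4 in c-MYC. The groups lay far apart, and the c-MYC libraries themselves spread over a wide range with c-MYC 3 highest. The log2 change was -9.72 (SE 0.59, adjusted p = 3.26e-07), and the c-MYC mean was 0.172% of the NL mean. Cyp1a2, which metabolizes caffeine and aromatic amines, was at 1400, 1172, 1102 and 1195 FPKM in NL and at 1.26, 0.547 and 4.35 in c-MYC, again with c-MYC 3 highest. Its log2 change was -9.63 (SE 0.53, adjusted p = 1.54e-07). Cyp2c29, an epoxygenase of arachidonic acid, had the largest decrease of any member. It fell from 1476, 1617, 1493 and 1398 FPKM in NL to 0.212, 0.188 and 1.35, which are 11, 10 and 70 reads. The log2 change was -11.75 (SE 0.54, adjusted p = 4.05e-08). Cyp2j5, another epoxygenase, was at 308 to 323 FPKM in NL and at 0.0697, 0.0905 and 0.580 in c-MYC, with a log2 change of -10.48 (SE 0.49, adjusted p = 4.92e-08). For Cyp2f2, which activates naphthalene, 655 to 853 FPKM in NL stood against 0.825 to 1.40 in c-MYC (log2 change -9.39, SE 0.19, adjusted p = 1.58e-10). The drug-metabolizing Cyp3a11 stood at 791 to 849 FPKM in NL and at 2.26, 1.40 and 7.66 in c-MYC (log2 change -8.11, SE 0.44, adjusted p = 1.504e-07). In each of these 6 genes c-MYC 3 was the highest of the c-MYC libraries, and all 3 libraries remained far under the NL range.

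The decreases differed in depth between subfamilies. In c-MYC the summed Cyp2j, Cyp2f, Cyp2e and Cyp1a levels were 0.134%, 0.143%, 0.172% and 0.178% of the NL means, and Cyp2a was at 0.322%. Cyp3a kept 0.800%, Cyp2c 1.83% and Cyp2d 2.45%. By their sums, the fatty acid hydroxylases of family 4 kept most among the abundant subfamilies, with 3.90% for Cyp4a, 3.83% for Cyp4f and 4.00% for Cyp4v. Cyp4a12b, at only 3.38 FPKM in NL, made up 6.13 of the 13.7 FPKM of Cyp4a in c-MYC. Without it the other 6 Cyp4a genes had mean sums of 348 FPKM in NL and 7.55 in c-MYC. The Cyp2c share likewise rests on Cyp2c68. Without that gene the mean Cyp2c sums were 4999 FPKM in NL and 36.5 in c-MYC, against 93.0 in c-MYC with it. Within Cyp4f the genes differed widely. Cyp4f14, a leukotriene B4 hydroxylase, was at 252 to 279 FPKM in NL and at 0.593, 0 and 1.06 in c-MYC, the middle library having no read (log2 change -9.62, SE 0.81, adjusted p = 3.70e-06). Cyp4f13 was at 97.9 to 110 FPKM in NL and at 12.7 to 16.5 in c-MYC, which is a smaller decrease (log2 change -2.90, SE 0.10, adjusted p = 1.36e-08). All 9 tested Cyp2d, all 5 Cyp3a and all 3 Cyp2a and Cyp2j members fell, as did 9 of 11 in Cyp2c, 5 of 6 in Cyp4a and 4 of 5 in Cyp4f. Cyp2r1, a vitamin D hydroxylase, and Cyp2u1, a fatty acid hydroxylase, also fell, with log2 changes of -6.20 (adjusted p = 2.46e-06) and -7.03 (adjusted p = 9.17e-09). So did Cyp2g1 (log2 change -6.39, adjusted p = 4.10e-08), which had 2 reads in the c-MYC libraries together. Cyp3a61-ps1 and Cyp4a31, named after their values were seen, had no read in any c-MYC library, and against a floor of 3 reads per library they were at least 26.5-fold and at least 9.63-fold lower than in NL. Bounds and intervals from reads cover counting error only.

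There were 7 tested members that did not fall in c-MYC: Cyp2c68, Cyp2c40, Cyp4a12b, Cyp4b1, Cyp2s1, Cyp4f16 and Cyp1b1. Cyp2c68, a gene of the large Cyp2c cluster, was at 100.3, 69.3, 94.8 and 92.0 FPKM in NL and at 75.3, 61.7 and 32.7 in c-MYC, so the groups overlapped (log2 change -0.72, SE 0.45, adjusted p = 0.602). Cyp2c40, a neighboring gene whose enzyme hydroxylates arachidonic acid, was low throughout, at 2.05, 1.17, 1.5 and 2.59 FPKM in NL and at 1.70, 2.11 and 1.10 in c-MYC (log2 change -0.14, SE 0.58, adjusted p = 1). Cyp4a12b, a fatty acid hydroxylase, was at 3.74, 4.70, 2.40 and 2.70 FPKM in NL and at 5.01, 6.38 and 7.001 in c-MYC. Each c-MYC library lay above NL, but the difference did not pass the test (log2 change 0.88, SE 0.49, adjusted p = 0.457). With the libraries brought to equal FPKM totals it passed, at 1.81 (adjusted p = 0.0214). That rescaling moved the median of all tested genes from 0.08 to 1.01, so it lifts the tumor values of all genes alike. Cyp4b1 stood at 3.05 to 3.57 FPKM in NL and at 0.638 to 1.93 in c-MYC without overlap, and missed the threshold (log2 change -1.52, SE 0.45, adjusted p = 0.0672). It passed without c-MYC 3 at -1.89 (adjusted p = 0.0274). It also passed without c-MYC/FOXO1AAA 2 or 3, with the 2 groups alone, with a replicate block and with voom, at log2 changes of -1.59 to -1.49 and adjusted p from 0.0207 to 0.0492. Cyp2s1, a P450 known from epithelia outside the liver, was the member that rose in c-MYC. It was at 0.956, 0.155, 0.224 and 0.568 FPKM in NL and at 2.82, 4.37 and 3.07 in c-MYC, each above the highest NL library (log2 change 3.00, SE 0.56, adjusted p = 0.00219). Between the tumor groups Cyp2s1 did not pass the test (log2 change -1.73, SE 0.60, adjusted p = 0.135), although it did without c-MYC/FOXO1AAA 3, at -2.20 (adjusted p = 0.0496), with the 2 groups alone, under quantile normalization and with voom (adjusted p from 0.0104 to 0.0481).

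Cyp4f16 had its lowest levels in NL and its highest in c-MYC/FOXO1AAA. It was at 2.02, 0.852, 1.69 and 1.29 FPKM in NL, at 3.65, 2.70 and 2.65 in c-MYC and at 6.99, 5.21 and 6.21 in c-MYC/FOXO1AAA. No groups overlapped, but of the 3 comparisons only c-MYC/FOXO1AAA against NL passed the test (log2 change 2.09, SE 0.27, adjusted p = 0.000302). The change from NL to c-MYC was 1.06 (SE 0.27, adjusted p = 0.108) and was called without NL 1 at 1.23 (adjusted p = 0.0367), and that between the tumor groups was 1.03 (SE 0.29, adjusted p = 0.225). Cyp1b1, an estrogen and hydrocarbon hydroxylase found mainly outside hepatocytes, was near its detection limit in NL at 0.0621 to 0.159 FPKM, or 3 to 9 reads, and in c-MYC at 0.106, 0.0104 and 0.223 FPKM, or 10, 1 and 21 reads. In c-MYC/FOXO1AAA it stood at 3.07, 1.95 and 3.91 FPKM, from 299 to 393 reads, above every other library. The log2 change was 4.82 against c-MYC (SE 0.66, adjusted p = 0.000250) and 4.56 against NL (SE 0.61, adjusted p = 9.49e-05).

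**Figure D2:**
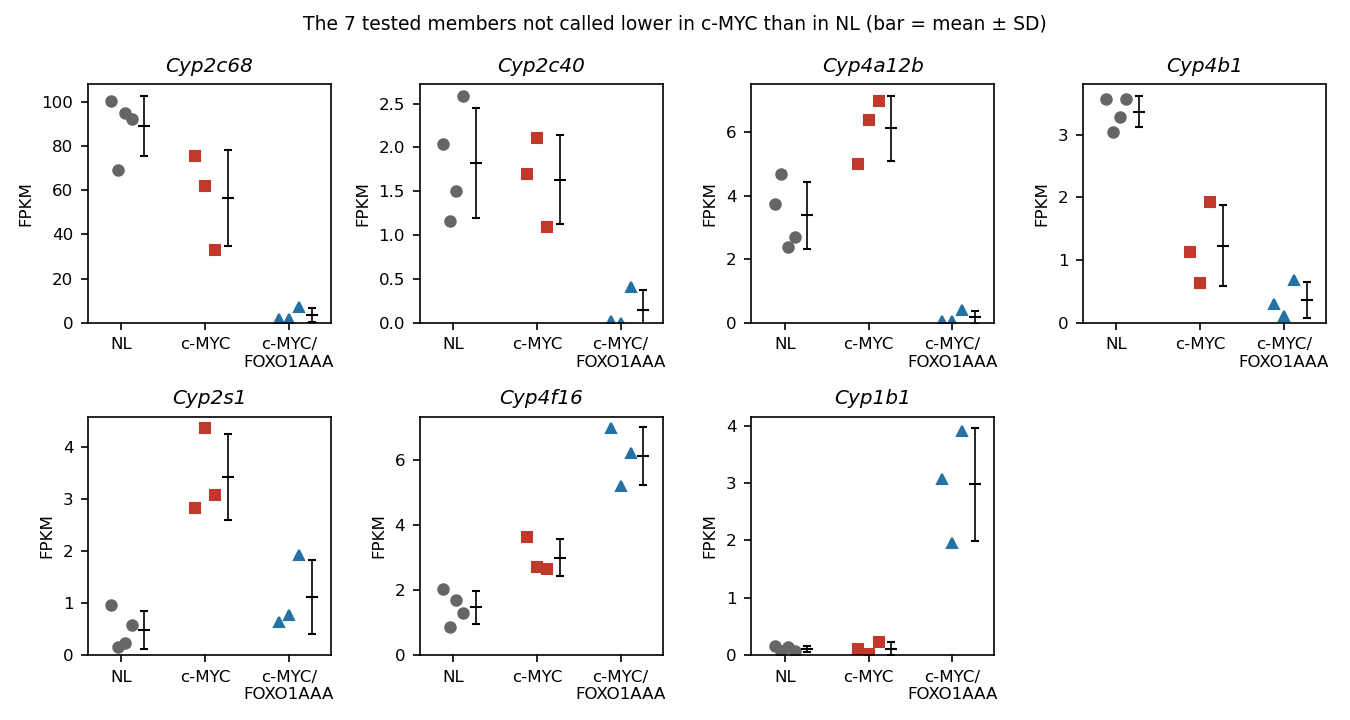
FPKM of the 7 tested members that did not fall in c-MYC against NL, 1 panel per gene with its own linear axis from 0; points are libraries and bars are mean ± SD (n = 4, 3 and 3). Cyp2c68, Cyp2c40 and Cyp4a12b have c-MYC libraries in or above the NL range and c-MYC/FOXO1AAA libraries near 0, whereas Cyp4f16 and Cyp1b1 are highest in c-MYC/FOXO1AAA.

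The second comparison asked what active FOXO1 changes in c-MYC tumors. The share of reads in the members was 0.0677% ± 0.0128 (SD, n = 3) in c-MYC/FOXO1AAA and their sum 235 FPKM ± 51.5, so the totals of the tumor groups did not differ beyond their spread. Single members moved in both directions. Of the 54 tested members 15 rose, where 15.9% of all tested genes rose, and 8 fell, where 12.7% of all tested genes fell. Under quantile normalization the split was 8 higher and 13 lower, so the balance of the directions changed with that setting. With the libraries brought to equal medians or to equal FPKM totals, all 23 calls were kept. The median log2 change was 0.53 for the members and 0.03 for all tested genes. In 22 members every c-MYC/FOXO1AAA library lay above every c-MYC library and in 13 every one lay below, where 32.7% and 30.7% of all tested genes did so.

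The 15 members that rose were Cyp1a2, Cyp1b1, Cyp2a12, Cyp2c29, Cyp2c50, Cyp2c54, Cyp2d9, Cyp2e1, Cyp2f2, Cyp2j5, Cyp2j6, Cyp4a32, Cyp4f14, Cyp4f15 and Cyp4f17, the last named after its values were seen. With the exception of Cyp1b1, all of them remained below NL. Cyp2e1 was at 58.0, 85.6 and 46.8 FPKM in c-MYC/FOXO1AAA, each above the highest c-MYC library at 27.4. The group mean was 4.77-fold that of c-MYC (log2 change 2.75, SE 0.63, adjusted p = 0.0136), and without c-MYC/FOXO1AAA 2 the adjusted p was 0.0510. Cyp2c29 was at 4.17, 6.82 and 3.27 FPKM, 8.15-fold the c-MYC mean (log2 change 3.40, SE 0.57, adjusted p = 0.00175). Cyp2j5 was at 2.25, 4.10 and 2.09 FPKM, 11.4-fold the c-MYC mean (log2 change 3.63, SE 0.52, adjusted p = 0.000584). In these 3 genes the groups did not overlap, with c-MYC/FOXO1AAA 2 highest and c-MYC 3 nearest to it from below. Cyp2f2 at 6.22, 5.38 and 4.29 FPKM had the narrowest spread among the large changes, 5.08-fold the c-MYC mean (log2 change 2.30, SE 0.20, adjusted p = 3.00e-05). Cyp4f14 was at 3.37, 4.92 and 2.93 FPKM (log2 change 3.45, SE 0.87, adjusted p = 0.0174), and without c-MYC/FOXO1AAA 2 the adjusted p was 0.0574. Cyp1a2 at 7.05, 9.66 and 4.86 FPKM stood just above the highest c-MYC value of 4.35 (log2 change 2.19, SE 0.56, adjusted p = 0.0322). That call was lost without c-MYC 2, where the log2 change was 1.53 (adjusted p = 0.103). It was also lost without c-MYC 1, c-MYC/FOXO1AAA 1 or c-MYC/FOXO1AAA 2 at log2 changes of 1.96 to 2.18 (adjusted p from 0.0806 to 0.106), and with the 2 groups alone, a replicate block or quantile normalization (adjusted p from 0.0512 to 0.0719).

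Among the other risers, Cyp2d9, a male-biased steroid hydroxylase, stood at 4.65 to 9.35 FPKM in c-MYC and at 16.8 to 33.0 in c-MYC/FOXO1AAA (log2 change 1.65, adjusted p = 0.00773). Cyp2a12, another steroid hydroxylase, stood at 1.005 to 3.34 and at 5.67 to 10.5 FPKM (log2 change 2.31, adjusted p = 0.00290). The groups did not overlap in either gene. Cyp2j6 was at 0.147 to 0.257 FPKM in c-MYC and 0.743 to 1.04 in c-MYC/FOXO1AAA (log2 change 1.90, adjusted p = 0.000464). Cyp4a32 was at 0 to 0.178 and 0.416 to 0.766 FPKM (log2 change 2.18, adjusted p = 0.00683), and Cyp4f15 at 0.0507 to 0.390 and 0.608 to 1.09 FPKM (log2 change 2.19, adjusted p = 0.00795). These 3 calls concern levels of about 1 FPKM or less, and each was lost with a pseudocount of 1 FPKM and under quantile normalization. The call of Cyp4f17 was lost in both of these settings and at a 2-fold threshold. Cyp2c50 and Cyp2c54, neighboring arachidonic acid epoxygenase genes, were called with log2 changes of 2.12 (adjusted p = 0.0266) and 2.45 (adjusted p = 0.0206). Each call was lost without c-MYC 1, c-MYC 2 or c-MYC/FOXO1AAA 1, and that of Cyp2c50 also without c-MYC/FOXO1AAA 3, with adjusted p from 0.0584 to 0.101 over these fits. Both were lost as well with the 2 groups alone, with a pseudocount of 1 FPKM and under quantile normalization (adjusted p from 0.0554 to 0.132). Cyp3a11 was not called, with 9.59, 10.4 and 7.35 FPKM in c-MYC/FOXO1AAA of which the lowest lay under c-MYC 3 (log2 change 1.62, SE 0.47, adjusted p = 0.0852). It was called with voom at 1.66 (adjusted p = 0.0406) and without c-MYC 3 at 2.31 (adjusted p = 6.34e-05). Also called without c-MYC 3 were Cyp3a25 at 1.90 (adjusted p = 0.0101) and Cyp2a5, the coumarin hydroxylase, at 2.07 (adjusted p = 0.0150).

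**Figure D3:**
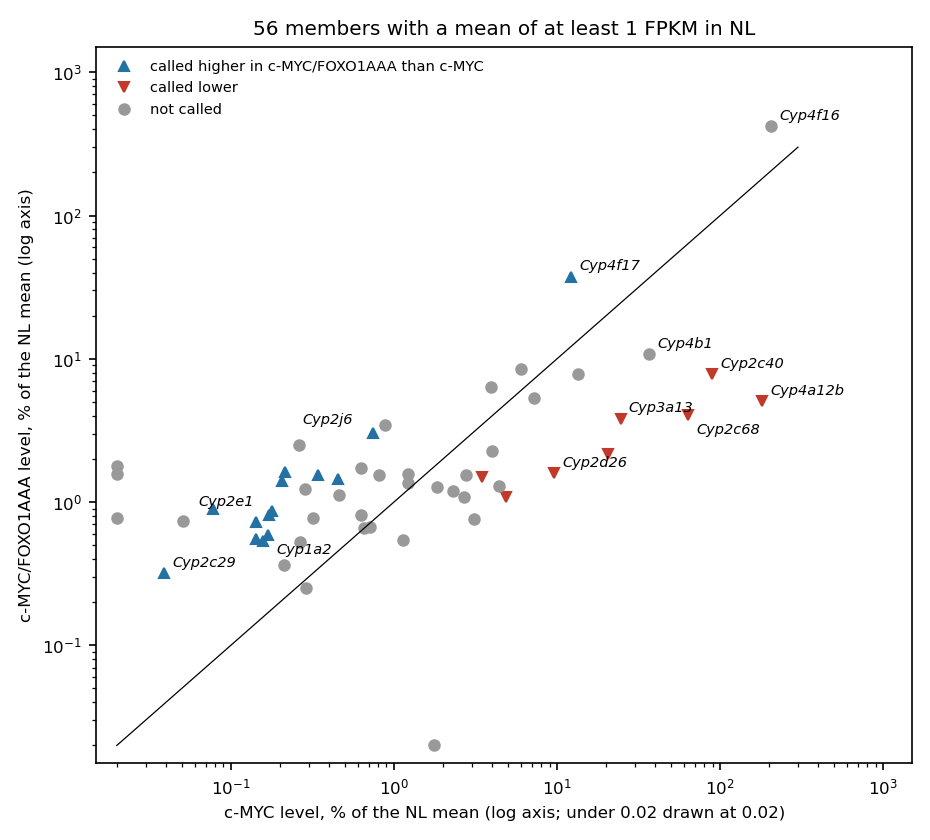
Mean level in c-MYC (x axis) against mean level in c-MYC/FOXO1AAA (y axis), each in percent of the NL mean on a log axis, for the 56 members with a mean of at least 1 FPKM in NL; the line marks equal levels, and the axes share the NL mean. Above the line lie 34 members and below it 22; of the members that rose, Cyp4f17 lies apart from the rest at 12.2% in c-MYC and 37.4% in c-MYC/FOXO1AAA.

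The 8 members that fell were Cyp2c40, Cyp2c68, Cyp4a12b, Cyp3a13, Cyp2d26, Cyp2c23, Cyp2a22 and the pseudogene Cyp2d37-ps, of which the last 5 were named after their values were seen. The 3 largest decreases were those of genes that had not fallen in c-MYC against NL. Cyp2c68 was at 1.93, 1.73 and 7.22 FPKM in c-MYC/FOXO1AAA, under each c-MYC library at 75.3, 61.7 and 32.7 (log2 change -4.17, SE 0.49, adjusted p = 0.000115). Cyp4a12b was at 0.0678, 0.0419 and 0.405 FPKM against 5.01, 6.38 and 7.001 (log2 change -5.17, SE 0.52, adjusted p = 2.87e-05). Cyp2c40 was at 0.0248, 0 and 0.405 FPKM against 1.70, 2.11 and 1.10 (log2 change -3.46, SE 0.62, adjusted p = 0.00242). In all 3 genes c-MYC/FOXO1AAA 3 was the highest library of its group, and the groups did not overlap. Cyp3a13 followed from 4.85, 4.40 and 3.96 FPKM in c-MYC to 0.220, 0.408 and 1.43 (log2 change -3.0, SE 0.50, adjusted p = 0.00196), and Cyp2d26 from 47.2, 84.5 and 60.4 FPKM to 6.49, 11.2 and 14.3 (log2 change -2.61, SE 0.27, adjusted p = 9.18e-05). Here too c-MYC/FOXO1AAA 3 lay highest and below each c-MYC library. Cyp2c23, an epoxygenase outside the main gene cluster, had a smaller decrease (log2 change -1.24, adjusted p = 0.01002), as did Cyp2a22 (log2 change -1.75, adjusted p = 0.0219) and Cyp2d37-ps (log2 change -2.02, adjusted p = 0.0251). Both of the last calls were lost without c-MYC 2, without c-MYC/FOXO1AAA 1 and without c-MYC/FOXO1AAA 2. That of Cyp2a22 was also lost with a pseudocount of 0.1 FPKM and with a replicate block, and the gene had 7, 13 and 5 reads in c-MYC and 1, 0 and 2 in c-MYC/FOXO1AAA.

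By subfamily, c-MYC/FOXO1AAA sums were 0.819% of the NL mean in Cyp2e, 0.591% in Cyp1a, 0.725% in Cyp2f, 1.08% in Cyp2j, 0.987% in Cyp2a, 1.05% in Cyp3a and 0.797% in Cyp2c. They were 1.502% in Cyp2d and 1.37% in Cyp4a, and Cyp4f was highest among the abundant subfamilies with 4.28%. The Cyp2j sum was 8.07-fold that of c-MYC, the Cyp2f sum 5.08-fold and the Cyp2e sum 4.77-fold. In the opposite direction, the Cyp2c sum was at 72.0 to 109 FPKM in c-MYC and at 34.8 to 47.6 in c-MYC/FOXO1AAA, and the Cyp4a sum at 12 to 15.4 and 3.63 to 6.41, without overlap in either. Without Cyp2c68 the other 14 Cyp2c genes summed to 33.6 to 39.2 FPKM in c-MYC and to 32.1 to 45.9 in c-MYC/FOXO1AAA, which overlap. Without Cyp4a12b the other 6 Cyp4a genes summed to 6.60 to 9.04 and to 3.57 to 6.37 FPKM, still without overlap. The Cyp3a sums overlapped, with 7.42 to 13.6 FPKM in c-MYC and 12.2 to 13.7 in c-MYC/FOXO1AAA, and so did the Cyp4f sums and the Cyp2d sums.

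The order of the members differed between the tumor groups. In c-MYC the leading members by mean were Cyp2d26 (64.0 FPKM), Cyp2c68 (56.6), Cyp4f13 (14.1), Cyp2c23 (13.7), Cyp2e1 (13.3) and Cyp2c70 (10.6). Cyp2c68 led in c-MYC 1 and Cyp2d26 in c-MYC 2 and c-MYC 3. In c-MYC/FOXO1AAA Cyp2e1 led in each library with 22.7% to 29.1% of the sum, followed by Cyp2d9 (22.3 FPKM), Cyp2d10 (17.1), Cyp2d26 (10.7), Cyp2c67 (9.42) and Cyp3a11 (9.11). As a description over the 36 members with at least 10 FPKM in NL, Spearman's rho of the mean levels was 0.56 between NL and c-MYC and 0.88 between NL and c-MYC/FOXO1AAA. Over all 64 members the values lay closer together, at 0.66 and 0.81. The points share their libraries and gene lengths, and no test was made.

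The third comparison set c-MYC/FOXO1AAA against NL. Of the 54 tested members 51 fell, where 26.6% of all tested genes fell, and 2 rose, where 31.2% did. The median log2 change was -6.05, and that of all tested genes was 0.21. In 51 members every c-MYC/FOXO1AAA library lay below every NL library, against 36% of all tested genes, and in 2 every one lay above, against 44.1%. The 2 that rose were Cyp1b1 and Cyp4f16, which are described above. Cyp2s1 was the remaining member, with 0.636, 0.768 and 1.93 FPKM in c-MYC/FOXO1AAA against 0.155 to 0.956 in NL, which overlap (log2 change 1.28, SE 0.56, adjusted p = 0.197). It was called higher without NL 1, at 1.69 (adjusted p = 0.0484), and with equal FPKM totals, at 2.38 (adjusted p = 0.00591). Cyp2c29 had the largest decrease (log2 change -8.35, adjusted p = 3.08e-07), followed by Cyp2a5 (-7.63, adjusted p = 7.81e-07) and Cyp2c50 (-7.51, adjusted p = 3.24e-07). In c-MYC against NL the 3 largest decreases were those of Cyp2c29, Cyp2j5 and Cyp2c54 (-9.90, adjusted p = 1.80e-07); both comparisons use the same NL libraries. Among the members not called between the tumor groups, Cyp2c67, named after its values were seen, was at 6.70 to 7.99 FPKM in c-MYC and 7.92 to 12.1 in c-MYC/FOXO1AAA, against 519 to 661 in NL (log2 change between the tumor groups 0.34, SE 0.16, adjusted p = 1). Cyp4v3, a fatty acid hydroxylase, stood at 4.88 to 6.51 FPKM and 2.63 to 3.78 FPKM (log2 change -0.81, SE 0.15, adjusted p = 0.248).

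The Cyp2c genes, all 15 of which lie on chromosome 19, showed these patterns side by side. From Cyp2c52-ps at 38976647 to Cyp2c70, which ends at 40187333, 14 genes stand in a single cluster, and Cyp2c23 lies apart at 44005022 to 44029208 (GRCm38, GENCODE M21). Cyp2c68 at 39688834 to 39741054 and Cyp2c40 at 39767071 to 39812814 are neighbors on the minus strand. They were the only tested Cyp2c genes that did not fall in c-MYC, while Cyp2c67, the next gene on one side, kept 1.22% of NL and Cyp2c37, beyond the untested Cyp2c69 on the other side, 0.286%. In c-MYC/FOXO1AAA all 11 tested Cyp2c genes were below NL. Beyond Cyp2c68 and Cyp2c40, the tumor groups differed in Cyp2c29, Cyp2c50 and Cyp2c54, which were higher in c-MYC/FOXO1AAA, and in Cyp2c23, which was lower. Cyp2c70, a bile acid hydroxylase, did not pass the test between the tumor groups (log2 change -0.51, SE 0.22, adjusted p = 1).

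**Figure D4:**
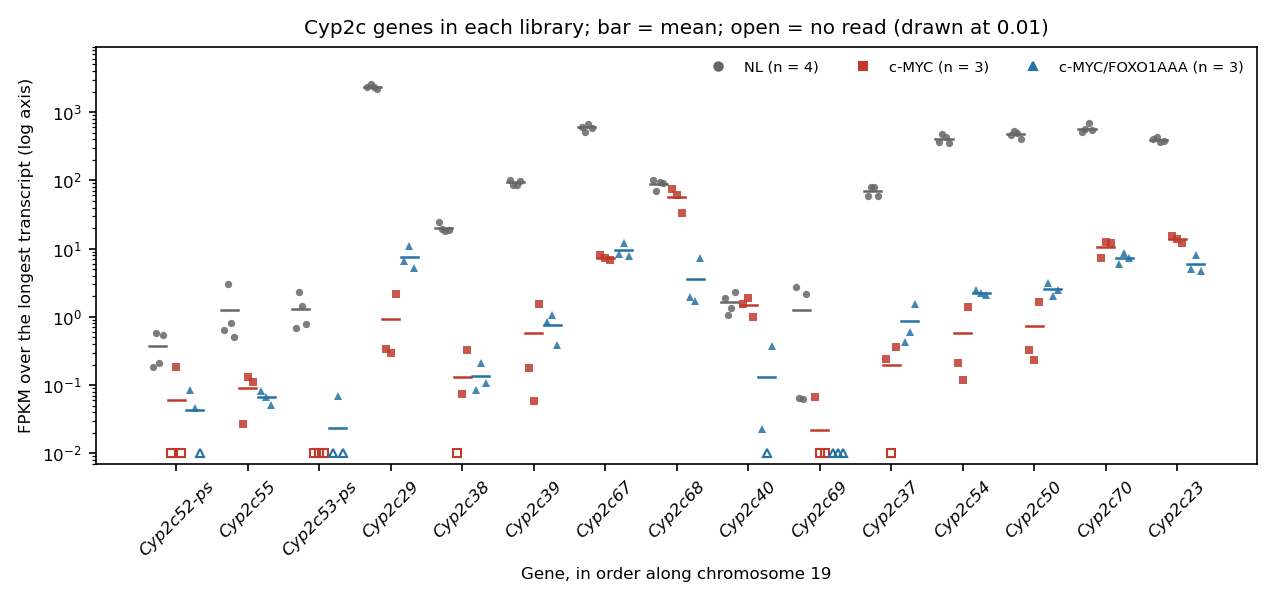
FPKM over the longest transcript of the 15 Cyp2c genes in each library on a log axis, in their order along chromosome 19 (spacing not to scale); points are libraries, bars are group means and open symbols mark libraries with no read. The c-MYC libraries of Cyp2c68 and Cyp2c40 reach the NL libraries, while their c-MYC/FOXO1AAA libraries lie far lower; in Cyp2c69, with at most 2 reads in a c-MYC library, c-MYC 1 lies among the lowest NL libraries.

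Several of these genes share sequence with close copies. Of all 100-base stretches of its annotated transcripts, 63.8% in Cyp4a12b occur in no other gene and 36.2% also occur in Cyp4a12a. In Cyp2c40 the unique share was 65.6%, in Cyp2c67 76.3% and in Cyp2c68 80.2%. The gene that shared most with Cyp2c68 was its neighbor Cyp2c40, which holds 16.7% of the Cyp2c68 stretches. The split of reads between these copies is thus uncertain. Cyp4a12a, a male-biased fatty acid hydroxylase, was at 277 to 349 FPKM in NL, 5.84 to 8.81 in c-MYC and 2.67 to 5.45 in c-MYC/FOXO1AAA. It thus fell against NL in c-MYC (log2 change -5.45, SE 0.23, adjusted p = 2.47e-08), where Cyp4a12b did not. In Cyp1b1 and Cyp2s1 every stretch was unique, and in Cyp4f16 94.0% were.

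P450 genes that differ between male and female mice were followed because the study used both sexes. Of 5 male-biased P450 genes, 4 fell in c-MYC against NL, and 2 rose (Cyp2d9 and Cyp7b1) and 1 fell (Cyp4a12b) in c-MYC/FOXO1AAA against c-MYC. Of 5 tested female-biased genes, 3 fell in c-MYC (Cyp2b9, Cyp2b10 and Cyp4a14) and 2 fell in c-MYC/FOXO1AAA against c-MYC (Cyp2c40 and Cyp17a1). All 5 of each list were below NL in c-MYC/FOXO1AAA. For comparison, 23.6% of all tested genes fell and 24.5% rose in c-MYC against NL. Between the tumor groups 12.7% fell and 15.9% rose, and 26.6% fell in c-MYC/FOXO1AAA against NL. Cyp2b9 was at 1.98 to 3.96 FPKM in NL, at most 0.198 in c-MYC and at most 0.0357 in c-MYC/FOXO1AAA (log2 change from NL to c-MYC -4.38, adjusted p = 1.05e-05). The 4 Y-linked genes looked at had reads in each library, although Kdm5d was at only 0.0840 FPKM in c-MYC/FOXO1AAA 2, against 1.80 to 2.77 in the other libraries. The 4 genes summed to 73.7 to 76.3 FPKM in NL, 52.6 to 72.3 in c-MYC and 35.5 to 55.2 in c-MYC/FOXO1AAA. The part of sex in these results was not tested.

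Genes that serve the P450 reaction were lower in tumors as well. Of 7 electron donors and partners, 5 fell and 1 rose in c-MYC against NL, with a median log2 change of -2.24. Of all tested genes 23.6% fell and 24.5% rose in that comparison, with a median of 0.08. Por was at 416 FPKM ± 49.1 in NL, 38.0 ± 6.88 in c-MYC and 17.0 ± 2.45 in c-MYC/FOXO1AAA. It fell at each step, with log2 changes of -3.46 from NL to c-MYC (adjusted p = 3.76e-08) and -1.15 between the tumor groups (adjusted p = 0.0113). Cyb5a, the cytochrome b5 of the endoplasmic reticulum, was at 1041, 102 and 30.4 FPKM (log2 change -3.35 from NL to c-MYC, adjusted p = 6.64e-08, and -1.78 between the tumor groups, adjusted p = 0.000108). The exception was Cyb5r1, at 4.66, 12.2 and 20.9 FPKM, which rose against NL in both tumor groups. Of these 7 genes, none rose and 4 fell in c-MYC/FOXO1AAA against c-MYC, where 15.9% of all tested genes rose and 12.7% fell. Of 13 genes of heme synthesis and breakdown, 9 fell in c-MYC and none rose, with a median log2 change of -1.22. All tested genes had the shares given above for c-MYC against NL. Alas1, the rate-limiting enzyme of heme synthesis in liver, fell from 307 FPKM ± 190 in NL to 21.5 ± 2.79 (log2 change -3.68, adjusted p = 1.02e-05). It was at 11.3 ± 1.01 in c-MYC/FOXO1AAA, which did not pass the test against c-MYC (log2 change -0.92, adjusted p = 0.448).

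The receptors and transcription factors known to control P450 genes moved in another pattern than the members. Of 24 tested, 14 fell and 1 rose in c-MYC against NL (median log2 change -1.81), and 15 fell and none rose in c-MYC/FOXO1AAA against c-MYC (median -2.18). Of all tested genes 23.6% fell and 24.5% rose in the first comparison, and 12.7% fell and 15.9% rose in the second. Against NL, 22 of 24 were lower in c-MYC/FOXO1AAA, where 26.6% of all tested genes were. Hnf4a, the central regulator of hepatocyte genes, was at 183 FPKM ± 14.3 in NL, 94.3 ± 15.5 in c-MYC and 7.15 ± 3.47 in c-MYC/FOXO1AAA. It did not pass the test in c-MYC (log2 change -0.97, adjusted p = 0.145) and fell between the tumor groups (-3.81, adjusted p = 3.13e-06). The xenobiotic receptors fell in both comparisons. Nr1i3, which encodes CAR, had log2 changes of -4.43 in c-MYC against NL (adjusted p = 4.47e-06) and -2.08 between the tumor groups (adjusted p = 0.00798). Nr1i2, which encodes PXR, had -2.54 (adjusted p = 8.95e-05) and -2.30 (adjusted p = 0.000649). Ppara had -2.54 (adjusted p = 5.46e-06) and -2.62 (adjusted p = 1.31e-05), and Ahr, the receptor for aryl hydrocarbons, -1.11 (adjusted p = 0.0128) and -1.65 (adjusted p = 0.000416). Cux2, a female-biased repressor of male-biased liver genes, was the one that rose in c-MYC (log2 change 2.93, adjusted p = 0.000679), and it fell in c-MYC/FOXO1AAA against c-MYC (-5.44, adjusted p = 1.18e-05).

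P450 genes outside families 1 to 4, which mainly handle sterols, bile acids and retinoic acid, were listed for comparison. Of 14 tested, 11 fell and 1 rose in c-MYC against NL (median log2 change -4.63), and 5 rose and 1 fell in c-MYC/FOXO1AAA against c-MYC. Among all tested genes 23.6% fell and 24.5% rose in the first comparison, and 15.9% rose and 12.7% fell in the second. Cyp7a1, the rate-limiting enzyme of bile acid synthesis, was at 1372 FPKM ± 418 in NL and 36.7 ± 36.2 in c-MYC (log2 change -5.60, adjusted p = 1.37e-05). The 5 that rose between the tumor groups were Cyp7b1 (log2 change 4.03, adjusted p = 0.000208), Ptgis (7.65, adjusted p = 3.18e-06), Cyp26a1 (2.73, adjusted p = 0.000799), Cyp26b1 (4.09, adjusted p = 8.43e-06) and Cyp39a1 (3.22, adjusted p = 0.000304). Ptgis, the prostacyclin synthase, was at 36.1 FPKM ± 11.9 in c-MYC/FOXO1AAA, above NL at 1.71 ± 0.810. Cyp7b1, an oxysterol hydroxylase, was at 168 FPKM ± 19.99 in NL, 0.226 ± 0.201 in c-MYC and 3.57 ± 0.476 in c-MYC/FOXO1AAA.

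Markers of hepatocytes, of liver zones and of other cell types differed between the groups as well, in part in another direction than the members. For the counts that follow, 23.6% of all tested genes fell and 24.5% rose in c-MYC against NL. Between the tumor groups 12.7% fell and 15.9% rose, and in c-MYC/FOXO1AAA against NL 26.6% fell and 31.2% rose. All 10 hepatocyte markers fell in c-MYC against NL (median log2 change -4.63), and 5 fell and 1 rose between the tumor groups (median -1.90). Their summed level was 90315 to 100316 FPKM in NL, 3684 to 5640 in c-MYC and 1096 to 1952 in c-MYC/FOXO1AAA. The 8 P450 genes known as pericentral all fell in c-MYC (median log2 change -9.63), and 5 rose between the tumor groups (median 2.16). Members outside this list moved in both directions between the tumor groups. For example, Cyp2f2 had log2 changes of -9.39 in c-MYC and 2.30 between the tumor groups, and Cyp2d26 had -3.42 and -2.61. Of all 54 tested members, 15 rose between the tumor groups and 8 fell. The part of liver zones in the P450 results was not tested. Of 9 other pericentral genes, all 9 fell in c-MYC (median -5.76) and 4 rose between the tumor groups (median 1.18). Of 7 periportal genes, all 7 fell in c-MYC (median -3.52), and 6 fell and 1 rose between the tumor groups (median -2.51). Stellate cell and fibroblast markers summed to 82.5 to 104 FPKM in NL, 15.6 to 49.0 in c-MYC and 475 to 496 in c-MYC/FOXO1AAA, where 5 of 8 rose against c-MYC and 7 of 8 against NL. In c-MYC against NL, 1 of the 8 rose (Col1a1) and 3 fell (Dcn, Lrat and Des), with a median log2 change of 0.24. Most of the NL sum was Dcn, at means of 69.7 FPKM in NL, 4.52 in c-MYC and 236 in c-MYC/FOXO1AAA. Cyp1b1 and Ptgis are high in the same libraries as the stellate cell and fibroblast sum. Endothelial markers summed to 44.97 to 60.4, 9.57 to 17.0 and 26.02 to 40.7 FPKM, and macrophage markers to 166 to 287, 44.5 to 56.0 and 39.5 to 65.2 FPKM, in the same order of groups. Of 5 tested endothelial markers, 3 fell and none rose in c-MYC, and between the tumor groups Cdh5 rose (median -0.71). Clec4g led their sum in NL (33.5 FPKM) and Cdh5 in c-MYC/FOXO1AAA (25.9). Of 6 macrophage markers, 2 fell and Cd68 rose in c-MYC (median -0.12), and Clec4f rose between the tumor groups. Most of the macrophage sum in NL was Clec4f, at means of 208 FPKM in NL, 4.47 in c-MYC and 17.9 in c-MYC/FOXO1AAA. Of 4 tested cholangiocyte markers, 2 rose and 1 fell in c-MYC, and 2 rose and 1 fell between the tumor groups. The part of the cell makeup in the P450 results was not tested.

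The level that remained in tumors was also set beside that of 8 other genes that are abundant in NL and at least 50 FPKM there, drawn from a list of 9 that includes major urinary proteins. The 27 members with at least 50 FPKM in NL had median levels of 0.276%, 0.208% and 0.611% of the NL mean in c-MYC 1 to 3. The other abundant genes had medians of 0.0706%, 0.0503% and 0.200% in the same libraries, and hepatocyte markers 3.58%, 5.62% and 5.26%. In both the members and the other abundant genes c-MYC 3 was the highest c-MYC library. In c-MYC/FOXO1AAA 1 to 3 the members' medians were 0.975%, 1.51% and 0.924%, the other abundant genes' 1.01%, 1.52% and 0.862%, and the hepatocyte markers' 0.891%, 1.10% and 2.56%. The members' quartiles there ran from 0.667% to 1.22%, 0.832% to 1.99% and 0.581% to 1.31%, which is narrower than in c-MYC, where they ran from 0.123% to 1.81%, 0.0464% to 2.52% and 0.363% to 2.002%. Of the list of 9, all fell in c-MYC, where 23.6% of all tested genes fell. Between the tumor groups 8 of them rose, where 15.9% of all tested genes rose. The list held Mup3, Mup7, Mup20, Uox, Hsd3b5, Serpina3k, C8a, Ces3a and Elovl3. The list was chosen with earlier results of these data known, so it is not an independent comparison. Nor does it hold the most abundant genes of NL, since Elovl3 was at 26.8 FPKM there and Alb, at 43168 FPKM, is not on it. The amount of normal liver tissue in a tumor sample was not measured, and its part in these levels was not tested.

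**Figure D5:**
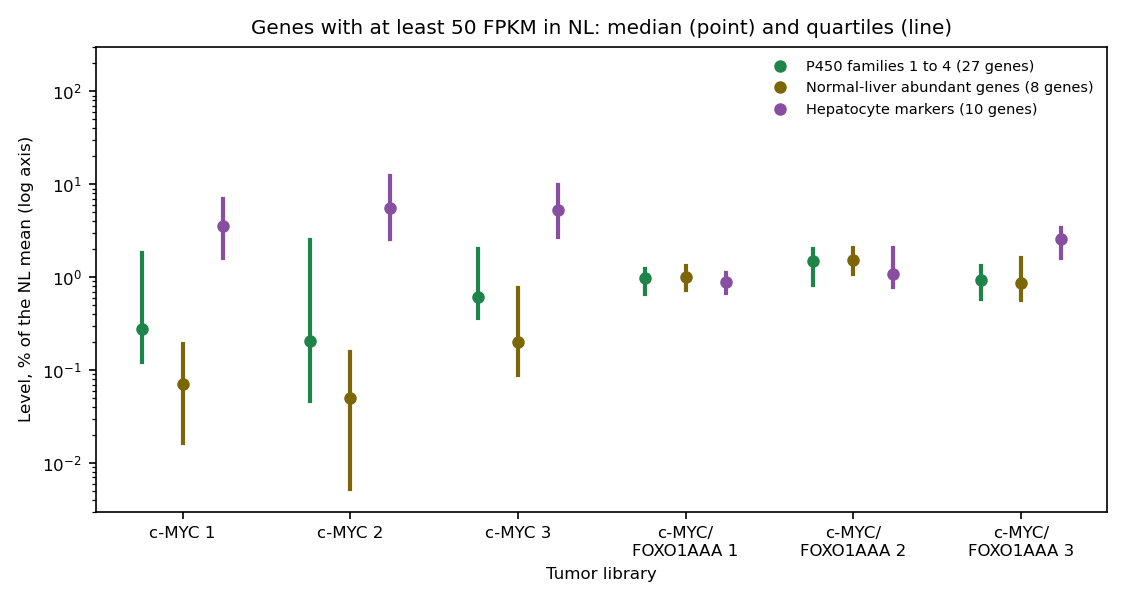
Level in each tumor library in percent of the NL mean, on a log axis, for genes with at least 50 FPKM in NL; points are medians and lines quartiles of 27 P450 members, 8 other abundant genes and 10 hepatocyte markers. In c-MYC the medians of the 3 sets lie apart, with hepatocyte markers highest, and in c-MYC/FOXO1AAA the 3 medians lie near 1% in the first 2 libraries.

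The 10 members that were not tested had NL means of 0.380 to 1.61 FPKM and were 5 pseudogenes, the steroid hydroxylase Cyp2a4, Cyp2c55, Cyp2c69, Cyp2d11 and Cyp1a1, the classical target of AHR. In 9 of the 10 every c-MYC library lay below every NL library, and in 9 every c-MYC/FOXO1AAA library did. Among all tested genes these shares were 34.9% and 36%, and no share was computed for genes under the filter. Cyp1a1 was at 0.454 to 0.806 FPKM in NL, at 0.0606 to 0.141 in c-MYC and at most 0.0248 in c-MYC/FOXO1AAA. Cyp2c69 had 50, 1, 1 and 32 reads in NL 1 to 4, 2 reads in c-MYC together and none in c-MYC/FOXO1AAA, so NL libraries differed widely. Without the filter, Cyp1a1 was called lower in c-MYC/FOXO1AAA against c-MYC (log2 change -1.58, SE 0.38, adjusted p = 0.0415), and no difference between the tumor groups was detectable for the other 9 at this depth.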

How the data were processed

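RNA sequencing was analyzed in 10 mouse liver libraries, grouped by their titles as NL, c-MYC and c-MYC/FOXO1AAA. The authors deposited 1 table of log2 FPKM. According to their methods, the authors counted reads by gene. The submitters' processing notes name FastQC 0.11.7 and the build GRCm38, and the aligner and counter are not given in the sources used here. As the values show, the logarithm was taken after adding a prior count of 2 that scales with library size, which understates the changes of low genes. Entries without a symbol, 372 of 17069, were left out. Because the deposited log2 scale keeps the steps of single reads, whole reads were recovered with a single solution for 99.91% of genes (tolerance 0.001 reads), including all 64 members. FPKM are these reads without the prior count, over the authors' lengths and library sizes.

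The test used the deposited log2 FPKM as they stand, because the unit is not a count. Genes with at least 1 FPKM in at least 3 libraries were kept. With limma 3.58.1 under R 4.3.3 and statmod 1.5.0, group means were estimated from the 10 libraries together, and changes beyond 1.5-fold in either direction were tested with treat, using trend, robust estimation and Benjamini-Hochberg adjustment. The scripts were tested on simulated data with known changes. The members and gene lists were chosen with earlier results of these data known.

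Members were named by a rule: the 2 with the highest mean in each subfamily, the 3 called with the largest increase and the 3 with the largest decrease in each comparison, all called higher than NL, and the 10 with the largest increase between the tumor groups. Lists of P450 partners, heme genes, regulators, other P450 families, sex-biased, zonal and cell type marker genes were counted beside all tested genes. The alternatives were other pseudocounts, filters, scalings, fold thresholds and variance settings, models of 2 groups alone, a term for the replicate number, voom on the recovered reads and fits without 1 library at a time. Positions were taken by symbol from GENCODE M21 (GRCm38). A comparison of protein sequences was planned and not run, and 1 planned motif is not reported here. Read counts set the precision of low values.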

Additional observations from a re-analysis of the deposited data

Results flagged for a closer look

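Of the 34 named members, Cyp4v3 in NL was the only one in which a library stood apart from the rest of its group of 4. NL 2 was at 162.821 FPKM and the other NL libraries were at 135.012 to 139.284, so that its gap to the nearest was 0.846 of the whole range, above Dixon's critical value for 4 samples. Chance alone marks about 1 in 20 groups. Each tumor library of Cyp4v3 lay at 2.63 to 6.51 FPKM, and the tests of Cyp4v3 against NL passed without NL 2 as well.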

How the results depend on the processing

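The 6 counts of called members and 99 results of the 34 named members were recomputed under 23 alternatives, and 2155 of the values of the named members stayed on their side of the threshold in their direction. In c-MYC against NL, the 1 member called higher became 0 with a mean FPKM of at least 5, 3 at the same FPKM total and 2 without a fold threshold. Leaving out 1 library gave 1 to 2, the 2 without NL 1, where Cyp4f16 was added. In c-MYC/FOXO1AAA against c-MYC, the 15 called higher became 9 with a pseudocount of 1, 8 under quantile normalization and 23 without a fold threshold, and 12 to 20 when 1 library was left out. The 8 called lower became 5 with a mean FPKM of at least 5, 13 under quantile normalization, 14 without a fold threshold and 5 at a 2-fold threshold, and 6 to 10 when 1 library was left out. In c-MYC/FOXO1AAA against NL, the 2 called higher became 0 with a mean FPKM of at least 5, which removes Cyp1b1 and Cyp4f16, and 3 at the same FPKM total or without NL 1, where Cyp2s1 was added. The counts of members called lower than NL were 35 to 56 in c-MYC and 36 to 60 in c-MYC/FOXO1AAA over all settings other than leaving out libraries, and 47 to 48 and 51 with 1 library left out. The cause of these shifts was not tested, other than that a filter changes how many genes are tested.

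Of 76 calls of the 34 named members, 17 were between the tumor groups. Of these 17, 9 were lost under an alternative in which the gene was still tested, while no call against NL was lost in this way. None of the 76 calls changed sign. With a mean FPKM of at least 5, a further 15 calls were not tested, 4 in c-MYC against NL, 3 between the tumor groups and 8 in c-MYC/FOXO1AAA against NL. Changes of sign concerned results that were not called. For Cyp1b1 in c-MYC against NL the log2 change became 0.01 (pseudocount 1), 0.67 (same FPKM total), 0.06 (quantile normalization) and ranged from -0.89 to 0.55 with 1 library left out, positive without c-MYC 2. For Cyp2c40 it became 0.79 (same FPKM total), 0.04 (replicate block), and ranged from -0.34 to 0.11 with 1 library left out, positive without NL 4 or c-MYC 3, and for Cyp2c68 0.20 (same FPKM total). For Cyp2b10 between the tumor groups it became -1.06 (quantile normalization), -0.03 (voom), and ranged from -0.04 to 0.68 with 1 library left out, negative without c-MYC/FOXO1AAA 3. For Cyp2g1 between the tumor groups it became -0.01 (pseudocount 0.1), -0.08 (equal median), -1.28 (quantile normalization), -0.14 (voom), and ranged from -0.15 to 0.31 with 1 library left out.

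The replicate numbers did not pair the samples, since the correlations of same-numbered libraries lay between -0.04 and 0.027. With the replicate number as a block, the calls were 1 higher and 48 lower in c-MYC against NL, 14 and 8 between the tumor groups, and 2 and 51 in c-MYC/FOXO1AAA against NL. Rescaling to the same FPKM total moved the median log2 change of all tested genes from 0.03 to 0.20 between the tumor groups and from 0.21 to 1.31 in c-MYC/FOXO1AAA against NL. Depth limits members with few reads: in the tumor libraries 8 to 13 of the 64 had none.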
